A study of Mus musculus with 12 samples.

Results

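Car1 and Car2, which encode cytosolic carbonic anhydrases, were set beside 5 genes of red cell precursors, Alas2, Slc4a1, Klf1, Hemgn and Epor, to ask whether the carbonic anhydrase genes moved together with the erythroid genes. The 7 genes were members of 19938 genes with a probe set of their own, that is, a probe set to which the platform annotation gives exactly 1 symbol, and each of the 7 had 1 such probe set. The members were picked from the values of these arrays, so their levels and differences are a description and carry no test. Natural killer (NK) cells, cytotoxic lymphocytes of innate immunity, were sorted as CD3- NK1.1+ from C57BL6 mice of 7 to 10 weeks that lacked the microRNA miR-142 (KO) or had it (WT), matched for age and sex. The 12 arrays were 3 KO spleen, 3 WT spleen, 3 KO bone marrow and 3 WT bone marrow, and no agent was given in any group. Arrays of a group are labelled biological replicates. Neither the number of mice behind an array nor the way the knockout was made is stated in the labels. All values are deposited log2 signals, so a difference of 1 is a 2-fold change, and such signals understate the change of dim genes.

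Carbonic anhydrases are zinc enzymes that interconvert carbon dioxide and bicarbonate. In red cells they work beside the anion exchanger encoded by Slc4a1, which trades bicarbonate for chloride across the membrane, while haemoglobin carries oxygen. Precursors of red cells mature in bone marrow, and in mice also in spleen, under erythropoietin and the transcription factors GATA1 and KLF1. NK cells belong to the lymphocytes, another branch of blood development.

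The labels KO and WT refer to miR-142, whose mature strands are given by RefSeq on chromosome 11 (GRCm38.p6, plus strand, chr11:87756867-87756887 and chr11:87756903-87756925). They are shown because their loss defines the KO groups, with the seed (bases 2 to 8) in capitals, and no search for their sites in the members was made.
mmu-miR-142a-5p: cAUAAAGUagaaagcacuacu
mmu-miR-142a-3p: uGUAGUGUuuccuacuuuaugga

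Car1 differed between the genotypes in opposite directions in the 2 tissues. Its signal was 6.93, 7.16 and 6.86 in KO spleen arrays 1 to 3, against 5.37, 5.14 and 5.44 in WT spleen. It was 5.76, 5.51 and 4.94 in KO bone marrow, against 7.77, 6.53 and 6.42 in WT bone marrow. In spleen every KO array was above every WT array, and in bone marrow every KO array was below every WT array. The difference of KO from WT was 1.77 ± 0.30 in spleen (SE, 95% interval 1.13 to 2.41), a fold of 3.41, and -1.71 ± 0.33 in bone marrow (-2.42 to -0.99). The KO effect in bone marrow minus that in spleen was -3.48 ± 0.47, and over both tissues the KO difference was 0.03 ± 0.21. WT bone marrow 1 was the highest of the 12 arrays. Without it the bone marrow difference was -0.89 ± 0.28, the WT difference between tissues was 1.04 ± 0.24 and the KO effect in bone marrow minus that in spleen was -2.49. In bulk samples of this kind, fewer cells of a type and less RNA per cell cannot be told apart.

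By group mean, Car1 stood highest in KO spleen (6.99 ± 0.16, SD, n = 3) and WT bone marrow (6.91 ± 0.75), and lowest in KO bone marrow (5.41 ± 0.42) and WT spleen (5.32 ± 0.15). Within the high pair, and again within the low pair, the arrays overlapped. Bone marrow minus spleen was thus 1.69 ± 0.30 in WT cells and -1.78 ± 0.33 in KO cells.

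Car2 was higher in KO cells of both tissues. Its signal was 10.26, 9.95 and 9.75 in KO spleen, against 9.37, 9.15 and 9.25 in WT spleen. It was 10.13, 10.26 and 10.00 in KO bone marrow, against 9.46, 9.52 and 9.54 in WT bone marrow. No KO array overlapped a WT array, within a tissue or across tissues. The difference of KO from WT was 0.68 ± 0.13 in spleen (0.40 to 0.97), a fold of 1.61, and 0.72 ± 0.14 in bone marrow (0.40 to 1.03), a fold of 1.64. The KO effect in bone marrow minus that in spleen was 0.03 ± 0.21 (-0.42 to 0.48).

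In order of group means, Car2 ran through KO bone marrow (10.13 ± 0.13), KO spleen (9.99 ± 0.26), WT bone marrow (9.51 ± 0.04) and WT spleen (9.26 ± 0.11). The KO tissues overlapped, with bone marrow minus spleen at 0.24 ± 0.14 (-0.08 to 0.55). The WT tissues did not overlap, though their fitted difference was 0.20 ± 0.13 with an interval that included 0 (-0.08 to 0.49). Car1 and Car2 therefore shared a direction in spleen and not in bone marrow, and over the 12 arrays their Pearson r was 0.12 and their Spearman rho 0.26.

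**Figure D1:**
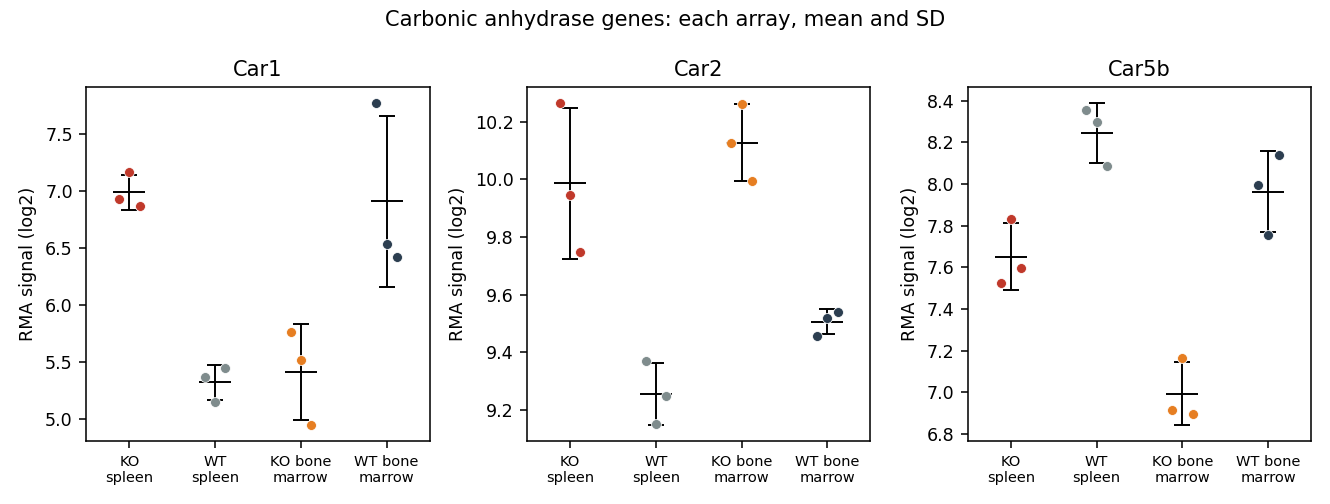
Log2 signals of Car1, Car2 and Car5b, a panel each with its own vertical scale that does not start at 0; points are single arrays, and bars are the mean and SD of 3 arrays in each of the 4 groups. Car1 in KO arrays lies above WT in spleen (6.86 to 7.16 against 5.14 to 5.44) and below it in bone marrow (4.94 to 5.76 against 6.42 to 7.77), while Car2 is higher and Car5b lower in KO arrays of both tissues.

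The differences could be taken within the runs of array numbers in the labels. In spleen, KO minus WT was 1.61 in run 1 and 1.60 in run 2 for Car1, and 0.49 and 0.86 in the same order for Car2. In bone marrow all KO arrays were in run 1 with 1 WT array, and there the differences were -2.36 for Car1 and 0.67 for Car2. That WT array was WT bone marrow 1, the highest of all for Car1, and without it the fitted bone marrow difference of Car1 was -0.89 ± 0.28. The directions within the runs were thus those given above, each from 1 to 3 arrays a group.

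The other carbonic anhydrases were all 14 measured, and 3 of them, Car5b, Car11 and Car15, had a mean above the filter on low signals and were tested. Of all 11963 genes tested with limma, 9.11% passed at a Benjamini-Hochberg adjusted p under 0.05 in spleen and 8.65% in bone marrow. Car5b, a mitochondrial carbonic anhydrase, was the 1 of 3 that passed, and it fell in KO cells. Its signal was 7.53, 7.83 and 7.60 in KO spleen, against 8.35, 8.30 and 8.08 in WT spleen. It was 6.92, 7.17 and 6.90 in KO bone marrow, against 7.99, 7.76 and 8.14 in WT bone marrow. The arrays of KO and WT did not overlap in either tissue. In spleen Car5b fell by 0.57 ± 0.14 (limma, adjusted p = 0.0246), and in marrow it fell by 1.02 ± 0.16 (limma, adjusted p = 0.00184). The difference between these effects, -0.44 ± 0.22, did not pass (limma, adjusted p = 0.58). The call in spleen ended without KO spleen 1 or 3 or any WT spleen array (limma, adjusted p up to 0.183), and that in bone marrow held without each array.

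Car11, a carbonic anhydrase-related protein without enzyme activity, differed by 0.01 ± 0.11 in spleen and 0.15 ± 0.13 in bone marrow, and Car15, a membrane-bound form, by -0.32 ± 0.14 and -0.13 ± 0.16 in the same order, with no adjusted p under the threshold. The other 11, Car3, Car4, Car5a, Car6, Car7, Car8, Car9, Car10, Car12, Car13 and Car14, were under the filter and untested, with KO minus WT between -0.33 and 0.23 in spleen and between -0.06 and 0.65 in bone marrow. In the RefSeq gene order of GRCm38.p6, Car13, Car1, Car3 and Car2 lie next to each other on chromosome 3, with only pseudogenes and 1 long non-coding RNA between them. Car13 lay at 4.08 to 4.41 in KO spleen against 4.42 to 4.75 in WT spleen, and at 4.34 to 4.78 in KO bone marrow against 4.06 to 4.92 in WT bone marrow. Car3 lay between 4.68 and 5.22 on all arrays. Neither neighbour showed the high and low groups of Car1, on signals that are dim.

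Alas2 encodes the erythroid form of the enzyme that starts haem synthesis. Its signal was 5.83, 6.14 and 5.75 in KO spleen, against 6.13, 6.14 and 5.80 in WT spleen. It was 5.95, 6.04 and 6.11 in KO bone marrow, against 6.79, 5.88 and 5.86 in WT bone marrow. The genotypes overlapped in both tissues, and WT bone marrow 1, the array with the highest Car1, stood alone above the rest. KO minus WT was -0.00 ± 0.19 in spleen and -0.36 ± 0.21 in bone marrow (-0.83 to 0.10), and without WT bone marrow 1 the bone marrow value was 0.12.

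Slc4a1 encodes band 3, the anion exchanger of the red cell membrane. Its signal was 5.99, 5.95 and 6.09 in KO spleen, against 6.03, 5.78 and 5.91 in WT spleen. It was 5.82, 5.74 and 5.96 in KO bone marrow, against 5.88, 5.98 and 5.86 in WT bone marrow. All 12 arrays lay between 5.74 and 6.09, and the genotypes overlapped in both tissues. KO minus WT was 0.11 ± 0.11 in spleen (-0.13 to 0.35) and -0.08 ± 0.12 in bone marrow (-0.35 to 0.18).

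Klf1, the erythroid transcription factor that drives beta globin genes, was the member below the filter. Its signal was 4.57, 4.40 and 4.68 in KO spleen, against 4.48, 4.33 and 4.61 in WT spleen. It was 4.82, 4.60 and 4.74 in KO bone marrow, against 4.49, 4.48 and 4.54 in WT bone marrow. The bone marrow groups did not overlap, with KO minus WT at 0.22 ± 0.13 (-0.06 to 0.51), and the spleen groups did, at 0.07 ± 0.12. These signals sat near the lower quartile of the arrays, 4.55 to 4.72.

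Hemgn encodes hemogen, a nuclear protein of blood progenitors and red cell precursors. Its signal was 5.67, 5.79 and 6.07 in KO spleen, against 5.91, 5.91 and 6.08 in WT spleen. It was 5.66, 6.04 and 5.63 in KO bone marrow, against 6.34, 6.33 and 6.20 in WT bone marrow. The spleen groups overlapped, and in bone marrow every KO array was below every WT array. KO minus WT was -0.10 ± 0.14 in spleen (-0.40 to 0.20) and -0.57 ± 0.15 in bone marrow (-0.90 to -0.23). In bone marrow, Alas2, Slc4a1 and Hemgn had a negative difference, the direction of Car1 there, while Klf1 (0.22) and Epor (0.06) had a positive one. Among the negative ones, Hemgn was the one whose groups did not overlap, at a smaller difference than Car1. In spleen, where Car1 was higher in KO cells, Slc4a1 (0.11) and Klf1 (0.07) were positive. There Alas2 (-0.00), Hemgn (-0.10) and Epor (-0.14) were not. Hemgn was also higher in WT bone marrow than in WT spleen, by 0.35 ± 0.14.

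Epor encodes the erythropoietin receptor. Its signal was 5.73, 5.55 and 6.03 in KO spleen, against 5.97, 5.78 and 5.99 in WT spleen. It was 5.66, 5.56 and 6.05 in KO bone marrow, against 5.56, 5.69 and 5.80 in WT bone marrow. The genotypes overlapped in both tissues, and array 3 was the highest of each of the 4 groups. KO minus WT was -0.14 ± 0.16 in spleen and 0.06 ± 0.18 in bone marrow (-0.33 to 0.44).

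Counted over the 7 members, KO and WT arrays did not overlap for 2 in spleen (Car1 and Car2), where this held for 21.8% of all 19938 genes, and for 4 in bone marrow (Car1, Car2, Klf1 and Hemgn), where it held for 28.3%. Bone marrow and spleen did not overlap for 3 members in WT cells (Car1, Car2 and Hemgn) beside 27.9% of all genes. In KO cells this held for 1 member (Car1), beside 13.6% of all genes. The genotype comparisons within the tissues use different arrays, while each comparison between tissues shares its arrays with them.

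**Figure D2:**
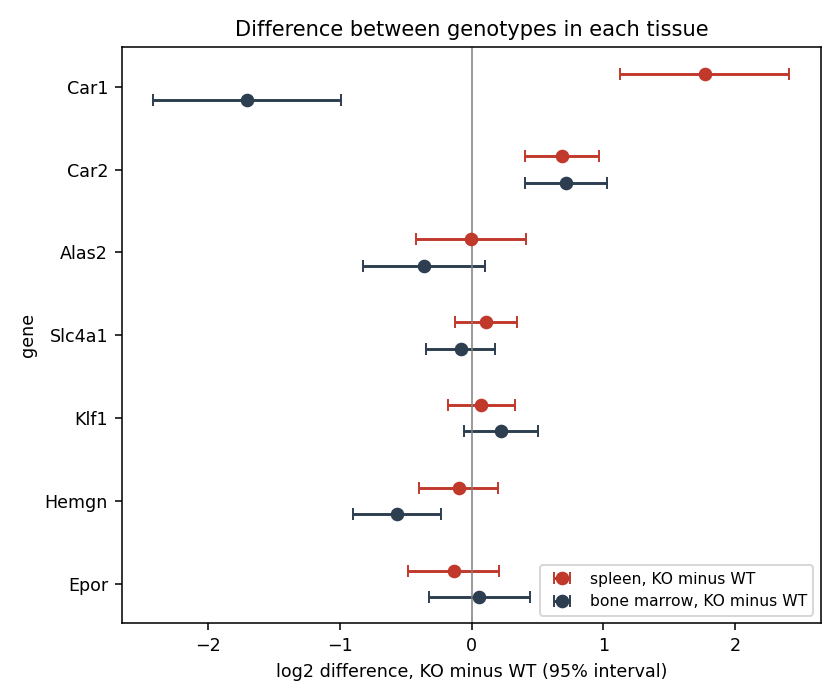
Difference of KO from WT in log2 signal for each of the 7 members, in spleen (red) and bone marrow (blue); points are estimates of the linear model over 12 arrays and bars are 95% intervals, with no test made. Car1 lies at 1.77 in spleen and -1.71 in bone marrow, and Car2 lies near 0.7 in both tissues. Of the 5 erythroid members, Hemgn in bone marrow lies farthest from 0, at -0.57.

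Whether Car1 and Car2 followed the erythroid members from array to array was described by correlation over the 12 arrays, which fall into 4 groups and share the group means. Pearson r of Car1 was 0.38 with Hemgn, 0.29 with Slc4a1, 0.28 with Alas2, -0.22 with Klf1 and -0.49 with Epor. Without KO bone marrow 3 and WT bone marrow 1, the arrays farthest from the median of Car1, r with Hemgn was -0.03, with Slc4a1 0.55 and with Klf1 0.02, and r of the deviations from the group means was 0.20, -0.27 and -0.01 in the same order. For Alas2 the value turned with the arrays used: Spearman rho was -0.01, r of the deviations was 0.70, and r was -0.37 without the same 2 arrays. With Epor each value was negative. Spearman rho of Car1 and Epor was -0.55, r of the deviations was -0.56, and r was -0.20 without those 2 arrays. Pearson r of Car2 was 0.54 with Klf1, -0.06 with Slc4a1, -0.19 with Alas2, -0.32 with Epor and -0.55 with Hemgn. For Klf1, r of the deviations was -0.17, so the positive value lay in the group means. The same measure was also negative for Alas2 (-0.12), Slc4a1 (-0.21), Hemgn (-0.25) and Epor (-0.42). With Hemgn, Spearman rho of Car2 was -0.52, and r was -0.58 without KO spleen 1 and KO bone marrow 2. The erythroid members did not form 1 pattern among themselves either, with r from -0.42 (Alas2 and Epor) to 0.54 (Slc4a1 and Epor). Within the groups Slc4a1, Klf1 and Epor did go together. There r of the deviations was 0.75 for Slc4a1 and Epor, 0.67 for Klf1 and Epor, and 0.52 for Slc4a1 and Klf1. For the other pairs it lay between -0.43 (Alas2 and Klf1) and 0.03 (Klf1 and Hemgn). All 5 erythroid members were dim, with means over the 12 arrays from 4.56 (Klf1) to 6.03 (Alas2), where array medians were 5.75 to 5.87. The embryonic and minor globins Hba-x and Hbq1b averaged 5.77 and 5.92. Signals this dim can hide a change, so a low r does not show that a gene stayed apart from Car1 or Car2.

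The genes most like Car1 over the 12 arrays, among all tested genes with a regular name, were Snu13 (r = 0.88), Larp1b (0.85), Ube2cbp (0.84), Nup85 (0.83) and Mrpl4 (0.83). Snu13 encodes a protein of spliceosomal and nucleolar particles, Nup85 a nuclear pore subunit and Mrpl4 a mitochondrial ribosomal protein. Snu13 lay at 11.38 on each KO spleen array, against 10.97 to 11.16 in WT spleen, and at 11.03 to 11.29 in KO bone marrow, against 11.17 to 11.48 in WT bone marrow. Those most like Car2 were Eml4 (0.98), Bcl2a1c (0.96), Tnfsf10 (0.96), Lpxn (0.95) and Aim2 (0.95). Tnfsf10 encodes the death ligand TRAIL and Aim2 a cytosolic DNA sensor. Tnfsf10 lay at 8.24 to 8.64 in KO spleen, against 6.04 to 6.70 in WT spleen, and at 9.05 to 9.27 in KO bone marrow, against 6.95 to 7.02 in WT bone marrow. None of these 10 genes was in the erythroid lists described next. Besides the members, those lists held 37 of the 11963 tested genes, so 10 genes would rarely include one. The shared adult globin probe sets described below were not in this ranking. Nothing about the erythroid genes is read from their absence here.

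The erythroid genes around the members were taken from lists of haem synthesis, globins, red cell membrane and antigens, and erythroid transcription factors. Of 62 listed genes that were not members, 50 had a probe set of their own and 37 were tested. In spleen 2 of the 37 rose in KO cells, where 5.48% of all tested genes rose, and 2 fell, where 3.63% fell. In bone marrow 0 rose, beside 3.92% of all tested genes, and 2 fell, beside 4.73%. Their median KO difference was -0.01 in spleen, the same as over all genes to 2 decimals, and 0.03 in bone marrow, against -0.01 over all genes. The number of calls in spleen was 2 without KO spleen 1 or 3 or WT spleen 1 or 2, and in bone marrow it was 1 without KO spleen 3, KO bone marrow 2 or 3, or WT bone marrow 1 or 3. With the globin signal described below as a covariate it was 1 in each tissue. That signal differs between the groups, so this fit also has wider standard errors.

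Among the enzymes of haem synthesis, Alad, which joins the precursor molecules into a pyrrole, was at 8.27, 8.29 and 8.56 in KO spleen, against 7.99, 7.75 and 7.81 in WT spleen. It rose by 0.63 ± 0.15 (limma, adjusted p = 0.0226), and in bone marrow its difference was 0.11 ± 0.17. The call for Alad in spleen ended without any 1 of the KO spleen arrays, without WT spleen 1 or 2 (limma, adjusted p up to 0.092) and without the run covariate (limma, adjusted p = 0.087). Slc25a39, a mitochondrial glutathione carrier needed for haem synthesis, passed over both tissues, where 19.1% of all tested genes did, at 0.26 ± 0.08 (limma, adjusted p = 0.0375). That call for Slc25a39 held without WT spleen 3 or WT bone marrow 1 and ended without each of the other 10 arrays (limma, adjusted p up to 0.113), and with no filter, median centring or the replicate block. Alas1, the form of the enzyme found in all tissues, differed by -0.03 ± 0.22 in spleen and -0.31 ± 0.24 in bone marrow.

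Of the transcription factors, Klf3, a repressor related to Klf1, gave the largest difference among the tested erythroid list genes. It lay at 8.27 to 8.86 in KO spleen, against 10.10 to 10.21 in WT spleen, and at 6.23 to 6.39 in KO bone marrow, against 8.96 to 9.56 in WT bone marrow. Klf3 fell by 1.59 ± 0.18 in spleen (limma, adjusted p = 0.000158), and in bone marrow it fell by 2.90 ± 0.19 (limma, adjusted p = 6.52e-06). It also fell in bone marrow against spleen, with differences of -2.27 ± 0.19 in KO cells and -0.95 ± 0.18 in WT cells. The call for Klf3 between WT tissues ended without WT spleen 3 or WT bone marrow 1 (limma, adjusted p = 0.0833 and 0.142). KLF3 acts in many tissues besides red cell precursors.

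Nfe2, which encodes a subunit of a factor of erythroid cells and megakaryocytes, was at 5.21, 5.32 and 5.47 in KO spleen, against 6.43, 5.99 and 6.25 in WT spleen, and fell by 0.91 ± 0.19 (limma, adjusted p = 0.0109). Without WT spleen 3 the adjusted p of Nfe2 was 0.0666 in limma. Lmo2, a bridging protein of the GATA1 complex, rose by 0.48 ± 0.12 in spleen (limma, adjusted p = 0.0312), a call that ended without KO spleen 1 or 3, WT spleen 1 or 2, or WT bone marrow 1 (limma, adjusted p up to 0.22). E2f2, a cell cycle factor of late erythroid precursors, fell by 0.60 ± 0.15 in bone marrow (limma, adjusted p = 0.0289). This call for E2f2 ended without KO spleen 3, KO bone marrow 2 or 3, or WT bone marrow 1 or 3 (limma, adjusted p up to 0.126), with the replicate block (0.0516) and with the tissue fitted alone (0.07). Gata1 was below the filter, at 4.98 to 5.53 in KO spleen against 5.31 to 5.37 in WT spleen, and at 5.12 to 5.56 in KO bone marrow against 5.02 to 5.17 in WT bone marrow. Of the red cell membrane list, Xk, which encodes the carrier of the Kx antigen, passed over both tissues, where it fell by 0.35 ± 0.07 (limma, adjusted p = 0.00583).

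For the KO effect in bone marrow minus that in spleen, 0 of the 37 passed in limma, and 0.00836% of all tested genes passed. At an unadjusted p under 0.05 in limma there were 4 of the 37. The share of all tested genes at that unadjusted threshold was not counted, so nothing is read from the 4. Between tissues, bone marrow against spleen, Klf3 was the 1 gene of the 37 that passed in either genotype, beside 5.37% of all tested genes in WT cells and 0.318% in KO cells.

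**Figure D3:**
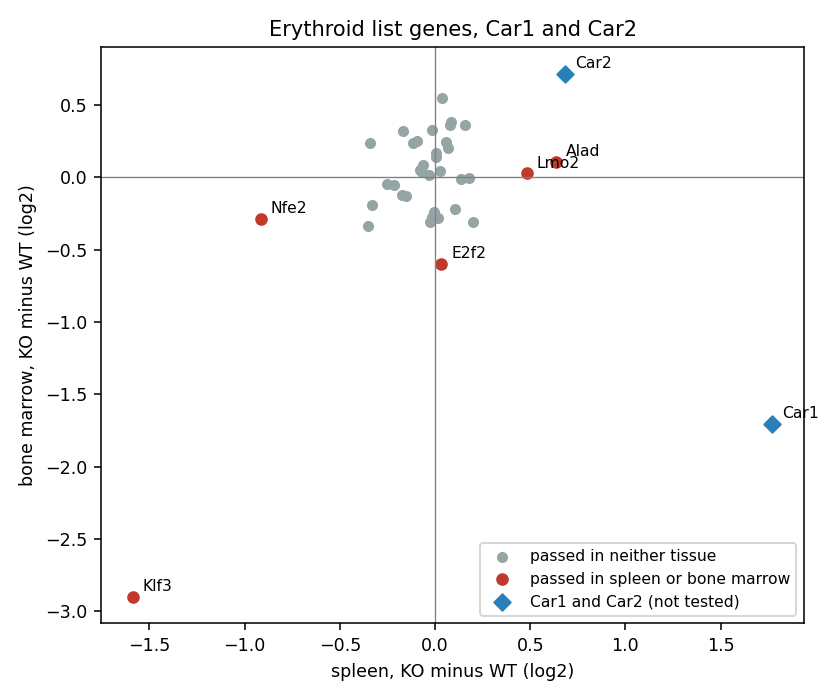
KO minus WT in log2 signal in spleen (horizontal) and bone marrow (vertical) for the 37 tested erythroid genes that are not members, with the 5 that passed in either tissue in red and named, and with Car1 and Car2 as diamonds, described without a test. Most genes cluster around 0 on both axes, Klf3 lies far down on the left (-1.59 and -2.90), and among the genes plotted Car1 combines a large positive spleen value with a large negative bone marrow value.

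Epor's signalling partners were 15 tested genes. In spleen 3 rose and 1 fell, beside 5.48% and 3.63% of all tested genes, and in bone marrow 2 rose and 2 fell, beside 3.92% and 4.73%. Cish, a feedback inhibitor induced by cytokine receptors through STAT5, lay at 7.77 to 8.05 in KO spleen against 6.07 to 7.05 in WT spleen, and at 8.09 to 9.11 in KO bone marrow against 6.52 to 6.86 in WT bone marrow. Its rise was 1.47 ± 0.24 in spleen (limma, adjusted p = 0.00264) and 1.66 ± 0.27 in bone marrow (limma, adjusted p = 0.00261). Ptpn6, the phosphatase SHP-1, rose in spleen, at 1.19 ± 0.12 (limma, adjusted p = 8.44e-05), and in bone marrow, at 0.88 ± 0.13 (limma, adjusted p = 0.00184). Pim1, a kinase induced by the same receptors, fell, with differences of -0.73 ± 0.19 in spleen and -1.08 ± 0.21 in bone marrow (limma, adjusted p = 0.0288 and 0.00735). Without WT bone marrow 1 the bone marrow calls of Cish and Pim1 ended (limma, adjusted p = 0.0544 and 0.0829), and the spleen call of Pim1 ended without KO spleen 1 or 3 or WT spleen 2 or 3 (limma, adjusted p up to 0.167). These genes also serve interleukin receptors of lymphocytes, and Epor itself had overlapping groups.

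In the list of iron uptake, storage and haem breakdown, 13 genes were tested, and the shares of all tested genes are those given for Epor's partners. In spleen 1 rose, Blvrb, a biliverdin reductase, by 0.44 ± 0.10 (limma, adjusted p = 0.0211). In bone marrow 2 fell, Ftl1, the ferritin light chain, at -0.49 ± 0.12, and Tfrc, the transferrin receptor, at -0.56 ± 0.15 (limma, adjusted p = 0.0253 and 0.0428). The call for Blvrb ended without KO spleen 3 or any WT spleen array (limma, adjusted p up to 0.113). That for Ftl1 ended without KO spleen 3, WT spleen 3, any KO bone marrow array or WT bone marrow 3 (limma, adjusted p up to 0.0635). That for Tfrc held without KO bone marrow 1 or 2 and ended without each of the other 10 arrays (limma, adjusted p up to 0.229) and in 6 of 10 other settings. Tfrc rose in WT bone marrow against WT spleen by 1.19 ± 0.14 (limma, adjusted p = 0.00115). Of 8 tested genes of bicarbonate, proton and gas transport, 0 passed in spleen and 0 in bone marrow in limma. At an unadjusted p under 0.05 in limma there were 0 and 1, with no share of all genes counted at that threshold. Aqp1, the water channel of red cells, had the smallest p, with 0.32 ± 0.12 in bone marrow (limma, adjusted p = 0.111).

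The adult globins, the most abundant products of red cell precursors, had no probe set of their own. They were measured by 2 probe sets annotated to both alpha globin genes and 2 annotated to 4 beta globin genes, and are given for the family, since single genes cannot be separated there. Using these shared probe sets was a choice made after the data were seen. The mean of the 4 probe sets was 8.66, 8.62 and 9.97 in KO spleen, against 6.13, 5.999 and 6.11 in WT spleen. It was 7.38, 5.83 and 9.68 in KO bone marrow, against 10.81, 9.84 and 10.12 in WT bone marrow. KO spleen was above WT spleen, and KO bone marrow below WT bone marrow, on every array, and the KO bone marrow arrays were far apart from each other.

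Fitted with all genes, the 4 shared probe sets rose in KO spleen by 2.92 to 3.65 (limma, adjusted p = 0.0114 to 0.0181). They had differences of -3.28 to -2.90 in KO bone marrow (limma, adjusted p = 0.0261 to 0.0448), and they rose in WT bone marrow against WT spleen by 4.01 to 4.94 (limma, adjusted p = 0.00599 to 0.00728). In KO bone marrow against KO spleen, 0 of 4 passed in limma, with 4 at an unadjusted p under 0.05 and differences of -1.998 to -1.81. The KO effect in bone marrow minus that in spleen was -6.93 to -5.82, and 0 of 4 passed (limma, adjusted p = 0.0816 to 0.0991), with 4 at an unadjusted p under 0.05. For both counts of unadjusted p, the share of all genes at that threshold was not counted.

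Single arrays decided the globin calls. Without KO spleen 3, 0 of 4 passed in spleen (difference 2.82, adjusted p = 0.0985 to 0.149) and 0 in bone marrow. Without WT spleen 1, 2 or 3, 3, 1 and 2 passed in spleen. Without KO bone marrow 1 or WT bone marrow 1, 0 passed in bone marrow (adjusted p = 0.0535 to 0.0873 and 0.177 to 0.25). The number in bone marrow was between 1 and 3 without KO spleen 1 or 2, any WT spleen array, KO bone marrow 2, or WT bone marrow 2 or 3. Between WT tissues 0 passed without WT bone marrow 1 (adjusted p = 0.0606 to 0.0741), and between KO tissues 4 passed without KO bone marrow 3 (adjusted p = 0.0192 to 0.0496). The signs of all 4 comparisons stayed the same in every one of these fits.

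Globin genes with a probe set of their own did not share this. Hba-x and Hbq1b, embryonic and minor globins, were tested and differed by 0.06 ± 0.11 and -0.17 ± 0.20 in spleen, and by 0.24 ± 0.13 and 0.32 ± 0.23 in bone marrow, with no adjusted p under the threshold. Hbb-y, Hbb-bh1, Hbb-bh2 and Hbq1a were below the filter. Of the red cell precursor markers, Rhag (3.26 to 3.81 over the 12 arrays), Kel (4.24 to 4.71) and Epb42 (4.69 to 4.94) were dim on every array. The other members of that list were Gata1, given above and below the filter, and the tested Ermap, at 5.90 to 6.27, and Tfrc, at 6.41 to 7.86. Ermap passed in neither tissue, and Tfrc passed in KO bone marrow, with the limits given above, and in WT bone marrow against WT spleen. On this log2 scale no value is at 0.

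**Figure D4:**
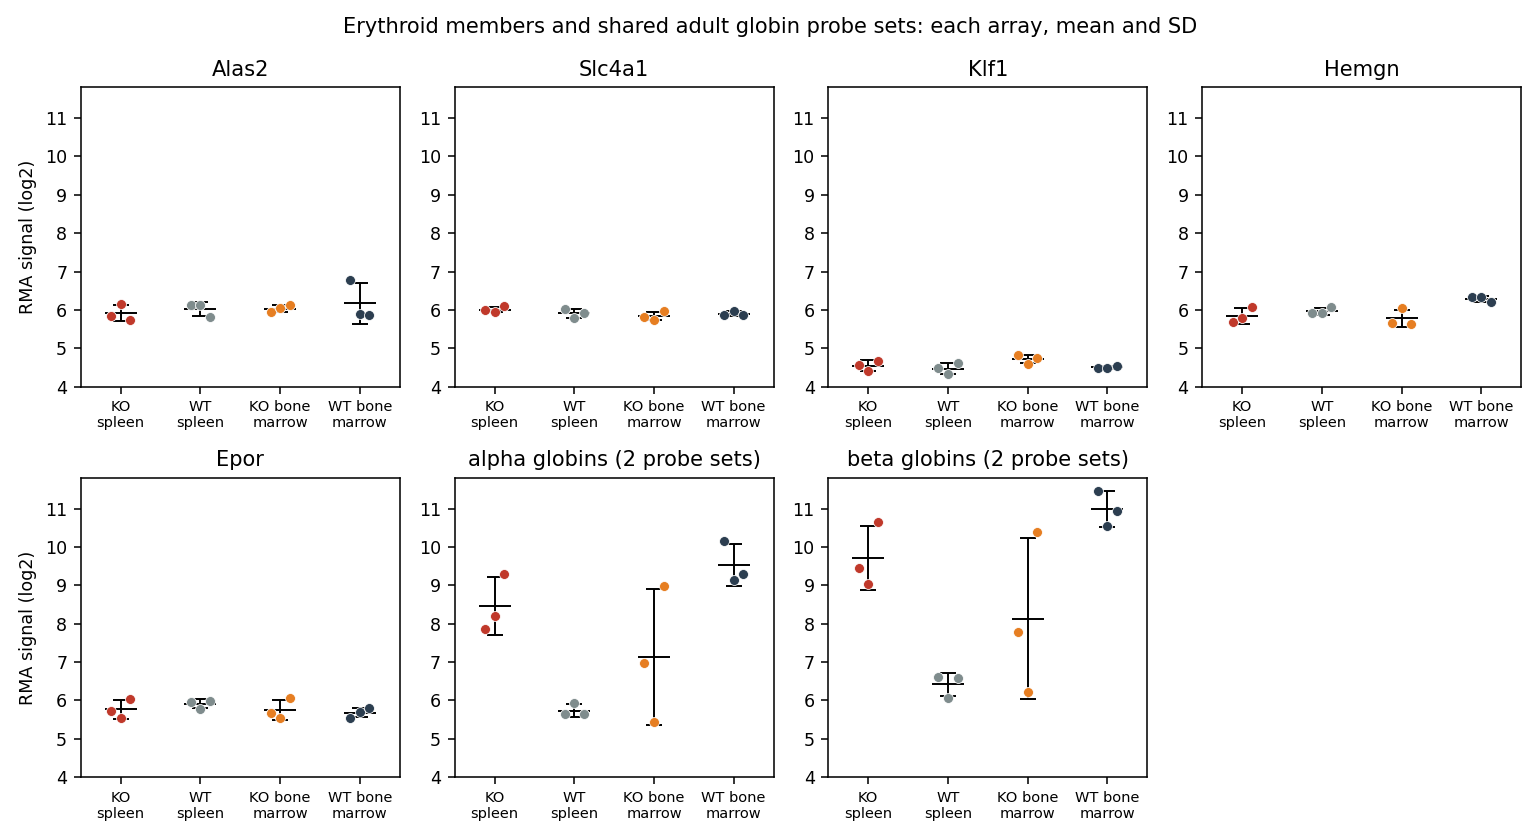
Log2 signals of the 5 erythroid members and the means of the 2 alpha and 2 beta globin probe sets, on 1 vertical scale that does not start at 0; points are arrays and bars the mean and SD of 3 arrays in each of the 4 groups. The members stay within narrow bands of dim signal (array medians 5.75 to 5.87), where a change can be hidden. Alpha globin averages 8.46 in KO spleen against 5.74 in WT spleen and 7.13 in KO bone marrow against 9.53 in WT bone marrow. Levels are not comparable between panels.

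Car1 and the shared globin signal were thus high in the same groups, KO spleen and WT bone marrow. Over the 12 arrays Pearson r was 0.68 and Spearman rho 0.58. Without KO bone marrow 3 and WT bone marrow 1, the 2 arrays farthest from the median of Car1, r was 0.85. That value leaves out KO bone marrow 3, an array that ran against the likeness. Within the groups r of the deviations was -0.18. WT bone marrow 1 had the highest value of both, and KO bone marrow 3 had the lowest Car1, 4.94, at a globin signal of 9.68. With the globin signal as a further covariate, an alternative added after the data were seen, the KO difference of Car1 was 2.21 ± 0.50 in spleen and -2.13 ± 0.51 in bone marrow. That of Car2 was 0.94 ± 0.20 and 0.47 ± 0.20 in the same order. Pearson r of Car2 with the globin signal was 0.10 and Spearman rho 0.05, while r of its deviations was -0.63. Without KO spleen 1 and KO bone marrow 2, the arrays farthest from the median of Car2, r was 0.38. For Epor, Slc4a1, Klf1, Alas2 and Hemgn, r of the deviations with the globin signal was 0.75, 0.63, 0.44, 0.18 and -0.29. Their r over the 12 arrays was -0.05, 0.41, 0.11, 0.18 and 0.31 in the same order. Values of r with other marker lists are given below.

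**Figure D5:**
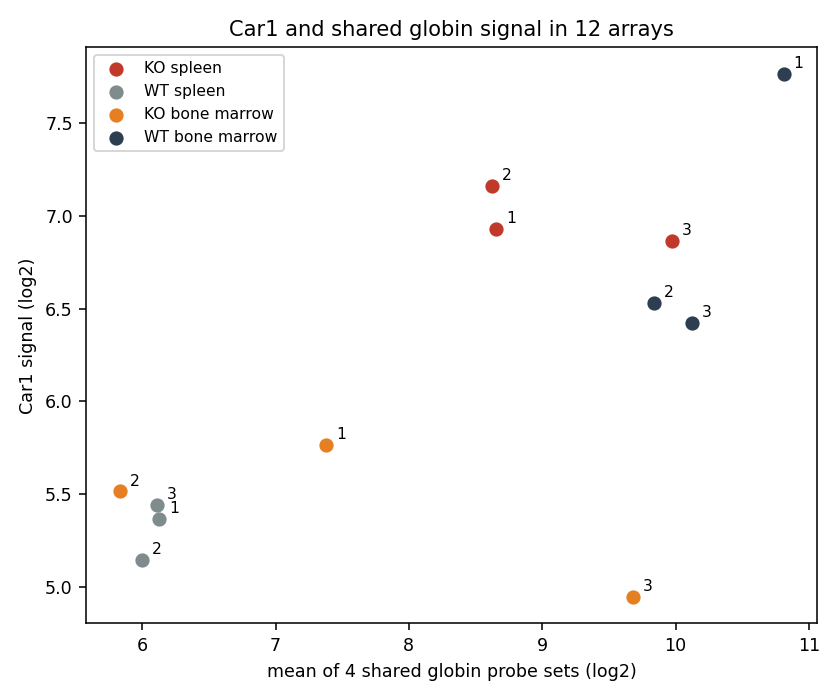
Car1 log2 signal (vertical) against the mean log2 signal of the 4 shared globin probe sets (horizontal) for 12 arrays, with the replicate number beside each point and colours for the 4 groups; neither axis starts at 0. KO spleen and WT bone marrow lie high on both axes, WT spleen lies low on both, and KO bone marrow 3 combines a globin signal of 9.68 with the lowest Car1, 4.94.

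Markers of other cells also moved with the groups, and their part in the results for Car1 and Car2 was not tested. Means of the granulocyte, proliferation, and megakaryocyte and platelet lists were set beside both genes. Over the 12 arrays Pearson r of Car1 with them was 0.50, 0.43 and -0.31, and r of the deviations was 0.07, 0.70 and -0.39. For Car2, r was 0.003, 0.22 and -0.18, and r of the deviations was -0.54, 0.33 and -0.69, in the same order. Beside the counts below, 5.48% of all tested genes rose and 3.63% fell in KO spleen, 3.92% rose and 4.73% fell in KO bone marrow, and 5.37% passed in either direction between WT tissues. Granulocyte markers, 6 of 12 tested, had a mean log2 signal of 5.46 to 5.99 in KO spleen against 4.93 to 5.56 in WT spleen, and of 5.61 to 6.27 in KO bone marrow against 6.84 to 7.10 in WT bone marrow. Of these 6, 1 rose in KO spleen (S100a8), 4 fell in KO bone marrow and 6 rose in WT bone marrow against WT spleen. Between WT tissues S100a8 rose by 3.72 ± 0.37 (limma, adjusted p = 0.000608). Its call in KO spleen ended without KO spleen 3 or WT spleen 3 and with the tissue fitted alone (limma, adjusted p up to 0.122). Its call in KO bone marrow ended without WT spleen 3 or KO bone marrow 2, without the run covariate, and with trend and robust variances (limma, adjusted p up to 0.0859). Proliferation genes, 14 tested, averaged 6.92 to 7.29 in KO spleen against 6.43 to 7.05 in WT spleen, and 6.97 to 8.65 in KO bone marrow against 7.99 to 8.88 in WT bone marrow, with 4 lower in KO bone marrow and 12 higher in WT bone marrow against WT spleen. T cell markers, 8 tested, averaged 6.38 to 6.60 in KO spleen against 6.65 to 6.76 in WT spleen and 6.36 to 6.58 in KO bone marrow against 7.11 to 7.22 in WT bone marrow. Of the 8, 3 fell in KO spleen (Cd3d, Cd247 and Cd28), 5 fell in KO bone marrow and 3 rose in WT bone marrow against WT spleen. In KO spleen, Cd3e and Cd3g had positive differences, 0.55 ± 0.22 and 0.44 ± 0.22, that did not pass (limma, adjusted p = 0.163 and 0.266).

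The 6 tested dendritic cell markers, Cd74, H2-Aa, H2-Ab1, H2-Eb1, Itgax and Tcf4, had positive KO differences in both tissues, the direction of Car2, and again their part was not tested. All 10 listed markers averaged 6.98 to 7.16 in KO spleen against 6.18 to 6.57 in WT spleen, and 6.87 to 6.91 in KO bone marrow against 6.22 to 6.47 in WT bone marrow. All 6 tested rose in KO spleen and 2, Itgax and Tcf4, rose in KO bone marrow, with H2-Aa at 2.00 ± 0.33 in spleen (limma, adjusted p = 0.00247). The other 4 were under the filter and untested, and among them Xcr1 had -0.43 ± 0.19 in spleen and 0.33 ± 0.22 in bone marrow, Siglech -0.17 ± 0.13 and 0.14 ± 0.15, Clec9a 0.08 ± 0.12 and -0.00 ± 0.13, and Flt3 0.03 ± 0.14 and 0.02 ± 0.16, in the same order. Osteoclasts also use Car2, and of their 4 tested markers 0 passed in either tissue in limma. At an unadjusted p under 0.05 in limma there were 0 in spleen and 2 in bone marrow, with no share of all genes counted at that threshold. NK cell markers were bright in all groups, with Ncr1 at 11.53 to 12.11 and Klrb1c at 10.66 to 11.42, where the upper quartile of the arrays was 7.24 to 7.42. Of the 12 in that list, all tested, 1 rose and 1 fell in KO cells of each tissue, and 3 fell in WT bone marrow against WT spleen (Gzma, Itga2 and Prf1). Gzmb, which encodes granzyme B, rose in spleen, at 1.14 ± 0.12 (limma, adjusted p = 0.000121), and in bone marrow, at 1.31 ± 0.14 (limma, adjusted p = 0.000122). Itga2, an integrin subunit of mature NK cells, had differences of -0.44 ± 0.11 in spleen and -0.76 ± 0.13 in bone marrow (limma, adjusted p = 0.0312 and 0.00309). The spleen call of Itga2 ended without KO spleen 2 or 3, any WT spleen array or WT bone marrow 1 (limma, adjusted p up to 0.206), and its call between WT tissues ended without any 1 of the 6 WT arrays (limma, adjusted p up to 0.174).

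Progenitor markers were also measured, as Hemgn is also made in blood progenitors, and their part was not tested. The 12 listed averaged 5.94, 6.004 and 5.82 in KO spleen against 5.89 to 6.09 in WT spleen, and 5.85 to 6.01 in KO bone marrow against 6.07 to 6.12 in WT bone marrow. Of 9 tested, 2 rose (Hoxa9 and Meis1) and 2 fell (Kit and Angpt1) in KO cells of each tissue. Hoxa9, a transcription factor of progenitors, rose in spleen, at 1.47 ± 0.14 (limma, adjusted p = 7.34e-05), and in bone marrow, at 1.73 ± 0.16 (limma, adjusted p = 5.88e-05). Kit, the stem cell factor receptor, had differences of -1.39 ± 0.15 and -1.31 ± 0.17 in the same order (limma, adjusted p = 0.000161 and 0.000633). The call of Meis1 in spleen ended without KO spleen 1 or 2 or any WT spleen array (limma, adjusted p up to 0.135). The call of Angpt1 in bone marrow ended without WT spleen 3, KO bone marrow 2 or WT bone marrow 1 (limma, adjusted p up to 0.25). With the globin signal as a covariate, these calls ended (limma, adjusted p from 0.0585 for Tfrc to 0.788 for Pim1). In spleen they were Car5b, Alad, Nfe2, Lmo2, Pim1, Blvrb, S100a8, H2-Aa, Itga2 and Angpt1. In bone marrow they were E2f2, Cish, Ftl1, S100a8, Itga2, Meis1 and Angpt1. Between WT tissues they were Klf3, Tfrc, S100a8, Itga2 and Kit, and between KO tissues Itga2. The globin signal differs between the groups, so this covariate also widens the standard errors. Estimates moved both ways: H2-Aa in spleen was then 2.12 ± 0.57, above its value in the main fit, and Pim1 there -0.19 ± 0.25, a smaller fall. What part the globin signal has in these calls was not tested.

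The 4 members with a RefSeq promoter entry, Alas2, Klf1, Hemgn and Epor, each had a GATA motif (GATAA or GATAG after an A or a T, on either strand) between 250 bases before and 50 after the start. Of 32851 mouse promoters of that length, 29.8% had one. The windows below, on the gene's own strand with the match in capitals, are shown because GATA1 is the shared regulator known for these genes, and a match is a description of letters. They lie in GRCm38.p6 at chrX:150547319-150547348 (plus strand) for Alas2, chr8:84901890-84901919 (plus) for Klf1, chr4:46404179-46404208 and chr4:46404138-46404167 (minus) for Hemgn, and chr9:21963613-21963642 (minus) for Epor. In Alas2, Klf1 and Epor the motif reads on the opposite strand.
Alas2, first base at -86: ctactttgctttTTATCTttagcagaggcc
Klf1, first base at -80: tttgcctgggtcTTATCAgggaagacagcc
Hemgn, first base at -13: acctgtgcagtgTGATAAagaaagtggaat
Hemgn, first base at 29: tgtggtctaaccAGATAAaacttttaggcg
Epor, first base at -54: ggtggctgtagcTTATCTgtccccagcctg
Positions count from the transcription start in the RefSeq table. No shared pattern of signal was read from the 4 genes with this letter pattern. In bone marrow KO and WT did not overlap for Hemgn and Klf1, as for 28.3% of all genes, and they overlapped for Alas2 and Epor. Hemgn was lower in KO bone marrow. Klf1 was dim, and the interval of its positive difference included 0 (-0.06 to 0.51), so its direction is open.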

How the data were processed

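The authors deposited log2 signals per probe set for 12 Affymetrix arrays of biotin-labelled cDNA. The submitters' processing notes name Affymetrix Expression Console and RMA (background correction, quantile normalization and probe summary). No version or genome build is given in the sources used here. Of 35556 probe sets, 21789 had 1 symbol, 1621 several and 12146 none, and the platform annotation can be old. The probe set with the highest mean was kept for each of 19938 genes, and 11963 genes whose mean exceeded 5.49, the 40th percentile, were tested. Array medians were 5.75 to 5.87. The number of arrays limits the precision, since signals carry no depth.

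A mean per group and the run of array numbers (2 runs, of 7 and 5 arrays) were fitted to all 12 arrays in limma 3.58.1 (R 4.3.3, two-sided, Benjamini-Hochberg over all tested genes, called under 0.05). The run appears in the descriptions as numbers only, and what it stands for is not given. Differences of the members come from the same fit without the filter. The steps were tested on simulated data. The members and the 20 gene lists were chosen with earlier results of these data known. Genes named are the members, all carbonic anhydrases, the globins, up to 4 called genes with the largest difference in a list (2 with the smallest p where none passed), and the 5 genes most correlated with Car1 and with Car2, without predicted genes and olfactory or vomeronasal receptors. Gata1, Alas1, Rhag, Kel, Epb42, Ermap, Ncr1, Klrb1c, Xcr1, Siglech, Clec9a, Flt3, Cd3e and Cd3g were named as well, after their values were seen. Alternatives were the filter, scaling, run, replicate block, tissues fitted alone, variance model, probe set averaging, each array left out, and, added later, the globin covariate. Promoter and miRNA sequences come from RefSeq tables of GRCm38.p6, which hold 4 of the 7 members' promoters.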

Additional observations from a re-analysis of the deposited data

Results flagged for a closer look

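The KO effect on Car1 ran in opposite directions in the 2 tissues on every array. The difference of group means in bone marrow minus that in spleen was -3.17, and as the gene was picked for its pattern this difference was not tested. The signal of the shared alpha and beta globin probe sets, which lie outside the genes with a probe set of their own, was 3.00 higher in KO spleen than in WT spleen as a difference of means, on a log2 scale.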

How the results depend on the processing

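With the 12 arrays each left out in turn, Car1 in KO minus WT stayed between 1.61 and 2.10 in spleen and between -1.88 and -0.89 in bone marrow, and Car2 between 0.58 and 0.83 and between 0.64 and 0.78. The KO effect in bone marrow minus that in spleen was -3.97 to -2.49 for Car1 and -0.19 to 0.19 for Car2. Bone marrow minus spleen was 1.04 to 2.02 in WT and -2.19 to -1.46 in KO for Car1, and 0.0518 to 0.32 in KO for Car2, lowest without KO spleen 3. Within runs, Car2 in spleen was 0.49 and 0.86, Car1 in bone marrow -2.36, and Car1 in WT bone marrow minus WT spleen 2.51 and 1.03. The values -2.36 and 2.51 both had WT bone marrow 1 as the only WT bone marrow array. With the globin covariate, Car1 was -4.34 for bone marrow minus spleen effects and 2.29 between WT tissues, and Car2 was 0.94 in spleen, 0.47 in bone marrow, -0.47 for the difference of effects and 0.55 between WT tissues.

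Genes called ranged from 546 (without WT spleen 3; 647 without KO spleen 3) to 1083 in spleen, from 371 (without WT bone marrow 1) to 1006 in bone marrow, from 0 to 5 for the difference of effects, from 82 (without WT bone marrow 1) to 702 between WT tissues and from 1 (without KO spleen 3) to 38 between KO tissues, against 1090, 1035, 1, 643 and 38 with all arrays. Without the run covariate they were 1590 in bone marrow, 2 for the difference of effects and 87 between KO tissues. The difference of effects gave 0 at the 60th percentile filter and 3 with trend and robust variances. With the globin covariate 231, 319, 0, 0 and 23 genes were called in the same order as above. The globin signal differs between the groups, so this fit also has wider standard errors for these comparisons. The erythroid genes called, 4 in spleen, 2 in bone marrow and 5 over the tissues together, ranged over left-out arrays from 2 to 5, 1 to 2 and 3 to 6, and from 0 to 2 between WT tissues. They were 2, 1 and 3 at the 60th percentile, 4 in bone marrow after quantile normalization again, 1 there with the tissue fitted alone, and with the globin covariate 1 in each tissue and 0 between WT tissues. Shared globin probe sets called ranged from 0 to 4 over left-out arrays in all 4 comparisons, and were 2 in spleen and 1 in bone marrow with trend and robust variances. The cause of these shifts was not tested.

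The replicate numbers were checked for pairing. Arrays of the same number correlated in their deviations at -0.02 to 0.24 over 18 pairs, with 6 over 0.1, and arrays of different numbers at -0.22 to 0.07 over 36 pairs, with 0 over 0.1. The medians were 0.08 and -0.02. As not every pair of the same number exceeded 0.1, the numbers were not taken as pairs, and the higher values are a hint from the data, not from the design. With the replicate block, Car1 was 1.73 in spleen and -1.61 in bone marrow, 5 genes were called for the difference of effects, and 1 erythroid gene was called in bone marrow. The limits are 3 arrays a group, 13 of 50 measured erythroid genes under the filter, and no KO bone marrow array in run 2.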
